A study of Arabidopsis thaliana with 6 samples.

Results

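*SWEET10* (AT5G50790), *SWEET11* (AT3G48740), *UMAMIT14* (AT2G39510) and *SIAR1* (AT1G44800) encode membrane proteins that let sugars or amino acids leave plant cells. They were chosen by name, as 4 of the 22746 probe sets tested and 4 of the 14135 genes that could be named, and the choice was made with their difference between *gis5* and WT on these arrays in view. That contrast is therefore given for them as a description, with no test. *SWEET10* and *SWEET11* were found through the annotation of the array. *UMAMIT14* and *SIAR1*, which is also named *UMAMIT18*, were found through the locus names in the study's own list of probe sets, which runs from the largest to the smallest difference and was read here only in its leading rows. As family background, 14 other *SWEET* and 5 other *UMAMIT* genes had a named probe set.

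SWEET proteins are uniporters that pass sugars across a membrane down the concentration gradient. In leaves they release sucrose from phloem parenchyma cells before proton symporters of the SUC family load it into the phloem, and other members serve nectaries, pollen, seeds and vacuoles. UMAMIT proteins do a similar job for amino acids, and are known for supplying amino acids to the phloem, to roots and to developing seeds.

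The *gis5* seedlings carry an EMS-induced point mutation in *POLD1*, which encodes the catalytic part of DNA polymerase δ, in the Columbia background, and the mutant, which is a single allele, had been backcrossed to WT 4 times. The WT seedlings were Columbia. Both genotypes were 10 d old, were grown on MS medium under continuous light and were harvested whole, with leaves and roots, in 3 biological replicates of each, and total RNA was hybridised to 1 Affymetrix ATH1 array per replicate. The growth temperature was 23°C in the description of the deposited data and 24°C in the methods.

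The values are linear MAS5 signals. Over all probe sets the array medians lay between 185 and 191 in *gis5* and between 174 and 182 in WT, a range of 9.53% that was left unscaled, and the first quartile of the signal was 41.0 to 41.3 in *gis5* and 32.7 to 43.6 in WT. Leaf and root transcripts were both present, with *RCA*, the gene for rubisco activase, at 34517 to 38346 in *gis5* and 39850 to 43821 in WT, and the root beta-glucosidase gene *PYK10* at 19247 to 22775 in *gis5* and 14994 to 22159 in WT. Ratios are differences of mean log2(signal + 16), *gis5* minus WT, with the standard error (SE) from limma, and they understate the change of dim probe sets. In whole seedlings, more cells of a type and more RNA per cell cannot be told apart.

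*SWEET10*, a sucrose transporter gene of clade III that is known to be transcribed in leaf veins around the floral transition, gave a signal of 342, 387 and 187 on the *gis5* arrays, against 58.1, 21.3 and 30.5 on the WT arrays. All 3 *gis5* arrays lay above all 3 WT arrays, and the lowest *gis5* signal was 3.22 times the highest WT signal. The mean was 305 ± 105 in *gis5* and 36.6 ± 19.1 in WT (SD, n = 3 each), an 8.33-fold ratio of mean signals whose size is uncertain, because the second and the third WT signals lay below the first quartile of their arrays. On the log2 scale the ratio was 2.61 (SE 0.35), the highest of all *SWEET* genes measured and at rank 6 of all probe sets. The third *gis5* array read clearly below the other two, and without it the log2 ratio was 2.91.

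*SWEET11*, which encodes a sucrose exporter of the leaf phloem parenchyma and belongs to the same clade, read 6257, 6125 and 5587 in *gis5*, against 6030, 5596 and 4948 in WT. The genotypes overlapped on these bright signals, with the lowest *gis5* array below 2 of the 3 WT arrays. The means were 5990 ± 355 in *gis5* and 5525 ± 545 in WT (SD, n = 3 each), which is 8.41% higher in *gis5* for a coefficient of variation of 5.93% among *gis5* arrays and 9.86% among WT arrays. The log2 ratio was 0.12 (SE 0.15), with a 95% interval from −0.25 to 0.48. It was 0.05 with arrays centred on their medians and 0.18 with quantile normalization.

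*UMAMIT14*, whose product exports amino acids from the phloem and pericycle of the root, read 235, 109 and 140 in *gis5*, against 24.4, 5.99 and 9.29 in WT. Again no *gis5* array came near a WT array, the closest pair differing 4.49-fold. The mean was 161 ± 65.6 in *gis5* and 13.2 ± 9.80 in WT (SD, n = 3 each). The log2 ratio was 2.59 (SE 0.33), at rank 7 of all probe sets. The WT signals lay below the first quartile of every array, so that the size of the ratio varied with the constant. It was 3.66 with 1 and 1.51 with 64 in place of 16, and for *SWEET10* the same constants gave 3.08 and 1.85.

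*SIAR1*, a bidirectional amino acid transporter gene known from the vasculature of siliques and roots, had the smallest spread of the 3 genes with separate genotypes. Its signal was 1753, 1368 and 1792 in *gis5*, against 671, 602 and 643 in WT. The means of 1638 ± 234 in *gis5* and 639 ± 34.4 in WT (SD, n = 3 each) differed by 1.33 on the log2 scale (SE 0.17), which put the gene at rank 117. This ratio stayed between 1.26 and 1.45 under the alternatives that could change it, both other constants included. The replicate block, the variance setting and the filters on probe sets leave a log2 ratio unchanged by construction. Every *gis5* array was thus above every WT array for 3 of the 4 genes, a pattern that 9.13% of all probe sets showed, and from which nothing is read here because the genes were chosen on this contrast.

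**Figure D1:**
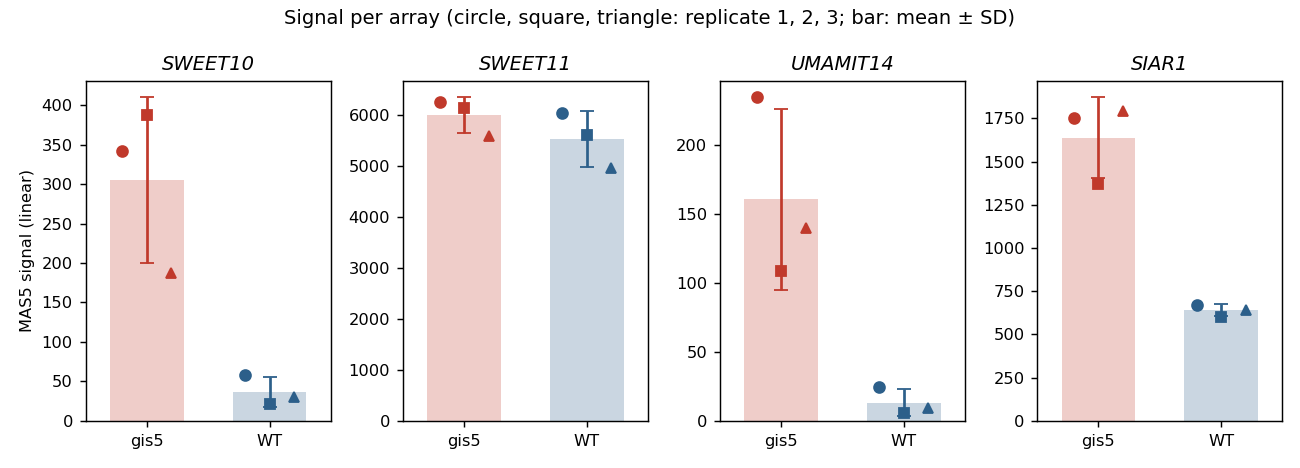
Linear MAS5 signal (vertical axis, from 0, a separate scale per gene) of *SWEET10*, *SWEET11*, *UMAMIT14* and *SIAR1* in *gis5* (red, left) and WT (blue, right), with 1 point per array and bars at the mean ± SD of 3 arrays. The *gis5* points of *SWEET10* (187 to 387), *UMAMIT14* (109 to 235) and *SIAR1* (1368 to 1792) all lie above the WT points, and those of *SWEET11* overlap with them.

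The genes that stood apart did not have the same order among the *gis5* arrays. *SWEET10* was lowest on the third *gis5* array (187), whereas *UMAMIT14* (109) and *SIAR1* (1368) were lowest on the second. In WT, the first array was the highest for each of the 4 genes. On the log2 scale the 3 *gis5* arrays spanned 0.99 for *SWEET10*, 1.00 for *UMAMIT14*, 0.39 for *SIAR1* and 0.16 for *SWEET11*. For the first 3 genes the gap between the genotypes, from the highest WT to the lowest *gis5* array, was wider than that span, at 1.45, 1.63 and 1.01. Nothing is read from these gaps, because the genes were chosen on this contrast.

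Seed transcripts were measured as far as they were named. Of 14 seed and embryo markers 5 had a named probe set, all found through the study's list, and their summed signal was 287 to 1518 in *gis5* and 256 to 275 in WT, with the lowest *gis5* sum on the first array and the highest on the second. *CRA1*, a cruciferin gene, read 2.29, 540 and 180 in *gis5*, against 8.51, 21.0 and 8.14 in WT, and *CRU3*, another cruciferin gene, read 66.3, 355 and 145 in *gis5*, against 19.5, 43.9 and 7.30 in WT. On the first *gis5* array *CRA1* (2.29) and the oleosin gene *OLEO2* (99.1) were below all WT arrays, and *CRU3* (66.3) and another oleosin gene, *OLEO4* (113), were above them all. The same array had the highest *UMAMIT14* signal of all arrays. *OLEO4* had the same order among the *gis5* arrays as *UMAMIT14*, at 113, 66.4 and 81.4, against 67.5, 53.6 and 45.9 in WT. The remaining marker, *SESA5*, read 6.16, 241 and 174 in *gis5*, against 29.9, 2.95 and 35.1 in WT. The second *gis5* array, with the highest seed sum, had the highest *SWEET10* signal of all arrays (387) and the lowest *UMAMIT14* (109) and *SIAR1* (1368) signals of the *gis5* arrays. Without the second *gis5* array the log2 ratios were 2.42 for *SWEET10*, 2.81 for *UMAMIT14*, 1.45 for *SIAR1* and 0.10 for *SWEET11*. The part of seed transcripts in the differences of the transporter genes was not tested.

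**Figure D2:**
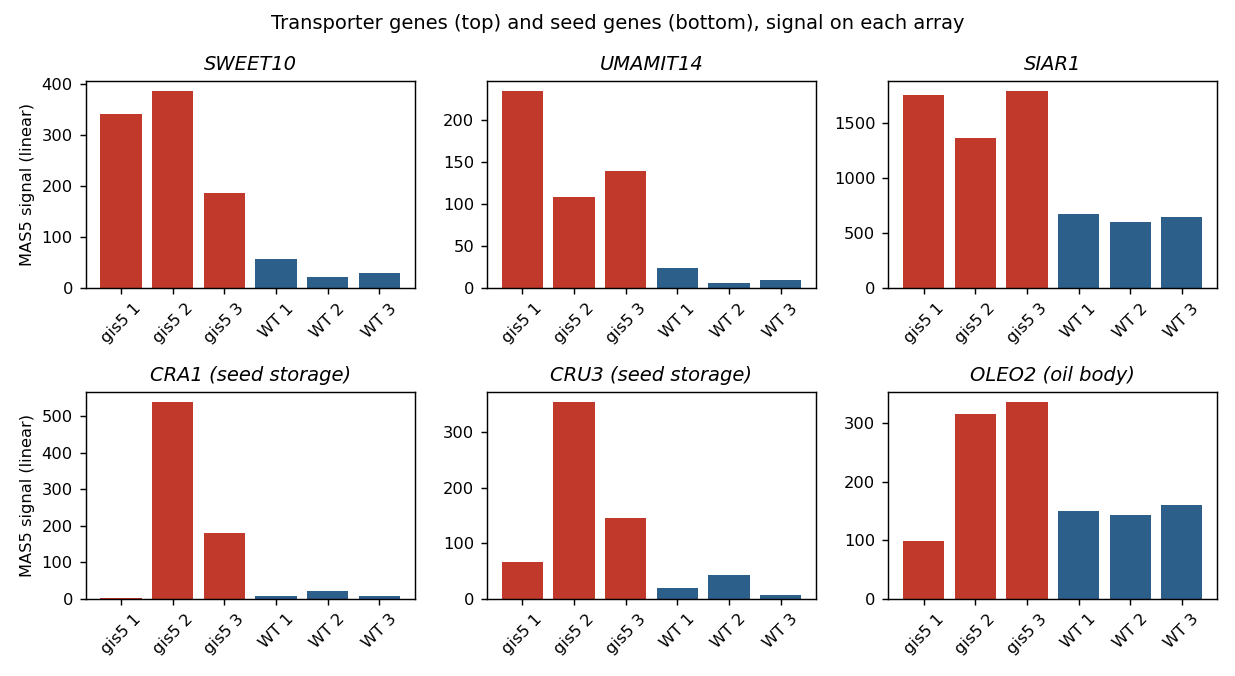
Linear MAS5 signal (vertical axis, from 0) on each *gis5* array (red, left) and WT array (blue, right) of *SWEET10*, *UMAMIT14* and *SIAR1* (top) and of the seed genes *CRA1*, *CRU3* and *OLEO2* (bottom). *CRA1* is at 2.29 on the first *gis5* array, where *UMAMIT14* is at 235, and at 540 on the second, where *UMAMIT14* is at 109 and *SWEET10* at 387. *OLEO4*, which is not drawn, went the other way from *CRA1*, with 113 on the first *gis5* array and 66.4 on the second.

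Of the 17 *SWEET* genes, 16 had a probe set, all named by the annotation of the array and none shared with another gene by its annotation or its suffix, while *SWEET12* was not analysed here. Leaving out *SWEET10* and *SWEET11*, 14 were tested. With limma 0 of these 14 had an adjusted p under 0.05, against 0.00440% of all probe sets (1 of 22746). At an unadjusted p under 0.05, 1 was higher in *gis5*, against 5.99% of all probe sets, 1 was lower, against 3.06%, and 12 were neither. The 2 of 14 compare with 9.05% of all probe sets in either direction. The log2 ratios were positive for 5 and negative for 9, with a median of −0.03, and over all probe sets 53.6% were positive with a median of 0.026. With arrays centred on their medians 10040 of the 22746 probe sets were positive, with a median of −0.044, and still 5 of the 14 genes. With quantile normalization *SWEET13* changed sign, and with a constant of 1 *SWEET5* did.

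The clade II gene *SWEET4*, for a hexose transporter of veins and root stele, had the lowest log2 ratio of the family. It read 2.54, 34.4 and 4.20 in *gis5*, against 105, 48.5 and 47.5 in WT. Every *gis5* array was below every WT array, a pattern shown by 6.79% of all probe sets. The log2 ratio was −1.57 (SE 0.45, limma adjusted p = 0.395, unadjusted p = 0.0105), so it did not pass over all probe sets. Leaving out any 1 array kept it between −2.03 and −1.27, at unadjusted p-values between 0.00106 and 0.039. Its signals on the first and the third *gis5* array lay far below the first quartile of their arrays, and the log2 ratio was −2.87 with a constant of 1 and −0.75 with a constant of 64.

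*SWEET7*, a glucose transporter gene of the same clade, had the highest ratio of the 14. It read 38.3, 24.2 and 25.9 in *gis5*, against 20.2, 10.5 and 2.65 in WT, and the genotypes did not overlap although all signals were dim. The log2 ratio was 0.78 (SE 0.27, limma adjusted p = 0.473, unadjusted p = 0.0249). The unadjusted p was over 0.05 without the first *gis5* array (0.0812), without the second WT array (0.0553) or without the third (0.0654). The only other gene with a ratio of at least 0.5 in size was *SWEET8*, known for its role in the pollen wall, at −0.60 (SE 0.32, adjusted p = 0.626), with signals of 9.99, 17.0 and 31.3 in *gis5*, against 59.0, 22.9 and 32.9 in WT. The genotypes overlapped for *SWEET8*.

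*SWEET* genes with brighter signals had small ratios. The glucose transporter gene *SWEET1* averaged 998 ± 144 in *gis5* and 834 ± 87.6 in WT (SD, n = 3 each), and the log2 ratio was 0.25 (limma adjusted p = 0.724). *SWEET2*, for a glucose transporter of the root vacuole, averaged 929 ± 89.8 in *gis5* and 1135 ± 158 in WT, and the log2 ratio was −0.28 (limma adjusted p = 0.679). The clade IV genes *SWEET16* and *SWEET17*, for fructose transporters of the tonoplast, had log2 ratios of −0.026 and −0.13. Their 95% intervals ran from −0.55 to 0.50 and from −0.55 to 0.29, so that a 2-fold difference lay outside both.

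Clade III holds the sucrose transporters. Besides *SWEET10* and *SWEET11*, the nectary gene *SWEET9* had a log2 ratio of 0.28, *SWEET13* one of 0.077, *SWEET14* one of −0.39 and the senescence-associated gene *SWEET15* (*SAG29*) one of 0.19, all with overlapping genotypes. *SWEET13* (AT5G50800) lies next to *SWEET10* on the genome. Its signal was 74.4, 78.7 and 103 in *gis5*, against 137, 62.1 and 56.4 in WT, with the highest value in WT. The 95% interval of its log2 ratio was −0.67 to 0.82. On the other side of *SWEET10*, AT5G50780 had a log2 ratio of 0.18 (SE 0.30).

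**Figure D3:**
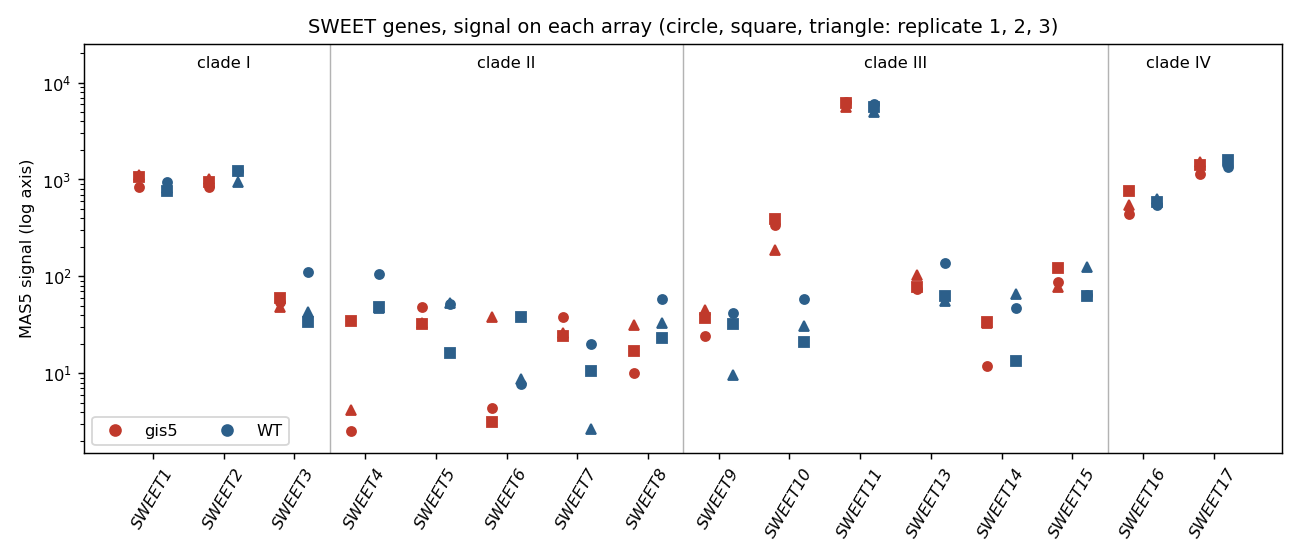
MAS5 signal (vertical axis, logarithmic) of the 16 *SWEET* genes with a probe set, ordered by number and split by clade, on each *gis5* array (red, left of each pair) and WT array (blue, right). *SWEET10* and *SWEET7* have all *gis5* points above the WT points and *SWEET4* has them all below, and the other 13 genes overlap.

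Of 45 *UMAMIT* genes only 7 had a named probe set. All 7 were named through the leading rows of the study's list, so that each had already been singled out for its difference, and they are described without a test. The 38 others were not analysed here. Beside *UMAMIT14* and *SIAR1*, 4 of the remaining 5 had all *gis5* arrays above all WT arrays and 1 had them below, and because the list was ordered by that contrast nothing is read from this against the 15.9% of all probe sets whose genotypes did not overlap.

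*UMAMIT17* read 208, 125 and 188 in *gis5*, against 67.5, 91.0 and 12.6 in WT, with a log2 ratio of 1.55 (SE 0.50). Its spread in WT came from the third array. *UMAMIT28*, known for amino acid export in the developing seed, read 284, 238 and 230 in *gis5*, against 150, 197 and 154 in WT, or 0.55 higher on the log2 scale (SE 0.17). *UMAMIT30* had a mean of 533 ± 55.3 in *gis5* and 354 ± 75.9 in WT, and *UMAMIT47* one of 276 ± 25.8 in *gis5* and 193 ± 22.6 in WT (SD, n = 3 each). These are log2 ratios of 0.58 and 0.49. *UMAMIT13* was the exception, with 547, 758 and 761 in *gis5*, against 917, 877 and 874 in WT, and a negative log2 ratio of −0.38 (SE 0.18).

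**Figure D4:**
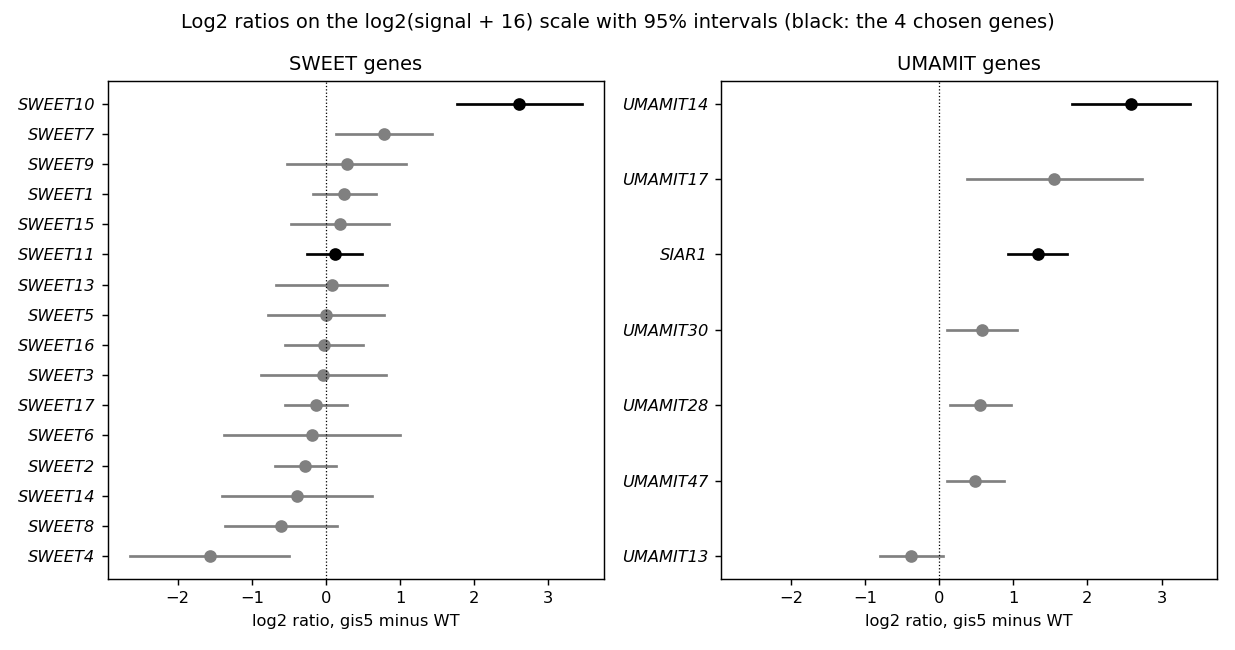
Log2 ratio, *gis5* minus WT, of log2(signal + 16) (horizontal axis) for 16 *SWEET* genes (left) and 7 *UMAMIT* genes (right), as points with 95% intervals, with the 4 chosen genes in black. *SWEET10* (2.61) stands outside the range of the 14 other *SWEET* genes (−1.57 to 0.78), while *SWEET11* (0.12) lies inside it. Nothing is read from the place of *SWEET10*, because it was chosen on this contrast. For the 4 chosen genes and all *UMAMIT* genes the intervals are a description and no test.

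The genome neighbours of the other genes were looked up in the same way, in the gene order of TAIR10.1. Of the nearest 3 genes on either side of *SIAR1*, 5 had a named probe set, with log2 ratios between −0.044 (AT1G44790) and 0.46 (AT1G44830) and overlapping genotypes. AT2G39500, next to *UMAMIT14*, read 483, 148 and 197 in *gis5*, against 107, 150 and 164 in WT, with by far the highest value on the first *gis5* array and a log2 ratio of 0.75 (SE 0.42, limma adjusted p = 0.642). The same array had the highest *UMAMIT14* signal. Farther from *UMAMIT14*, AT2G39520 and AT2G39530 had log2 ratios of 0.35 and 0.21 with overlapping genotypes. For *SWEET11* neither direct neighbour was analysed here. Of the next ones, AT3G48760 (−0.18), AT3G48720 (−0.12) and AT3G48710 (−0.021) had negative log2 ratios. Genotypes overlapped for AT3G48720 and AT3G48710. AT3G48760 read 497, 560 and 539 in *gis5*, against 605, 567 and 637 in WT, without overlap. Every *gis5* array was below every WT array in 6.79% of all probe sets. AT3G48770 had 0.87 (SE 0.43, limma adjusted p = 0.61), with overlapping genotypes on dim signals. These were 57.0, 22.7 and 5.06 in *gis5*, against 4.68, 2.66 and 9.29 in WT.

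Among genes outside both families, the closest profiles over the 6 arrays were sought in 8458 named probe sets with a mean signal of at least 100 in *gis5* or WT, by Pearson's r on the log2 scale. They are a description, since with 6 arrays in 2 genotypes any gene that differs in the same direction correlates. Closest to *SWEET10* was AT3G45730 (r = 0.996), which read 304, 337 and 205 in *gis5*, against 105, 58.2 and 86.0 in WT, and was likewise lowest on the third *gis5* array within that genotype. Next came AT1G32120 and AT5G14730 (both r = 0.994), with smaller log2 ratios of 0.47 and 0.43. Closest to *UMAMIT14* were AT3G18760 (r = 0.998), *LSM6A* and *CAN* (both r = 0.997), with log2 ratios of 0.46, 0.37 and 0.40.

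For *SIAR1* the closest was *DIC2* (r = 0.998), a mitochondrial dicarboxylate carrier gene, which read 154, 130 and 148 in *gis5*, against 82.2, 75.1 and 77.1 in WT. It was followed by AT2G18370 (r = 0.994) and AT4G33985 (r = 0.992). The profile of *SWEET11*, in which the genotypes overlapped, was closest to that of AT1G63310 (r = 0.991), the sucrose synthase gene *SUS6* (r = 0.987) and AT5G35400 (r = 0.984). None of these lists shared a gene.

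Other carriers of sugars and amino acids were sparsely named on these arrays, and most of them through the study's list. Genes named through that list were singled out for their difference, so they are described without a test. *SUC1*, the only 1 of 9 sucrose symporter genes measured, averaged 929 ± 111 in *gis5* and 689 ± 77.7 in WT (SD, n = 3 each). It came from the list, and its log2 ratio was 0.42 (SE 0.17). *STP1*, the only 1 of 14 monosaccharide symporter genes, averaged 1633 ± 465 in *gis5* and 2315 ± 425 in WT, with overlapping genotypes. It too came from the list, and its log2 ratio was −0.52 (SE 0.25). *SUC2*, which loads sucrose into the phloem, was not analysed here.

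Of 15 vacuolar and other sugar carrier genes 6 were measured, and 5 of these were named by the annotation of the array. None of those 5 reached an unadjusted p under 0.05 in limma, against 9.05% of all probe sets. All 6 log2 ratios were negative, with a median of −0.21, and they lay between −0.31 for the vacuolar glucose transporter gene *VGT1* and −0.02 for *TMT1*, a tonoplast monosaccharide transporter gene. Over all probe sets 53.6% were positive without median centring. Because *VGT1* was named through the study's list, nothing is read from these signs or this median. Of 25 amino acid importer genes 3 were measured, *LHT2*, *CAT6* and *PROT2*, all named through the study's list. Their log2 ratios were −0.33, −0.14 and 0.19, with overlapping genotypes for each. The amino acid export genes *GDU1* and *GDU4*, of 8 in that group and from the same list, had log2 ratios of 0.45 and 0.31 (SE 0.19 and 0.20).

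Genes that cleave sucrose or related sugars had 4 of 16 measured, all 4 with a positive log2 ratio and a median of 0.70. Because 3 of the 4 were named through the study's list, nothing is read from these signs or this median. *SUS1*, a sucrose synthase gene from that list, read 603, 456 and 504 in *gis5*, against 275, 320 and 349 in WT, without overlap of the genotypes. Its log2 ratio was 0.70 (SE 0.18). *CWINV3* and *CWINV6*, which despite their names encode fructan exohydrolases, had 0.58 and 0.71, and *SUS6* had 0.75 with overlapping genotypes. Only *CWINV6* was named by the annotation of the array, and it did not pass over all probe sets (limma adjusted p = 0.571).

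Markers of the tissues in which these exporters are known were checked as far as they were named. Of 15 phloem markers only *OPS*, a gene of early phloem development, was measured, at 67.1, 55.6 and 29.2 in *gis5*, against 36.1, 56.0 and 66.8 in WT. Of 10 xylem markers only *CESA8*, a gene for secondary wall cellulose synthesis, was measured, at 200, 185 and 155 in *gis5*, against 92.8, 79.0 and 150 in WT. It was named through the study's list, so its log2 ratio of 0.70 (SE 0.24) was not tested. The 5 root markers measured of 12 had positive log2 ratios, against 53.6% of all probe sets without median centring. Of the 5, 2 were named through the study's list, *TIP2;3* and *CASP1*. Their median was 0.58, the value of *TIP2;3*, with a summed signal of 21954 to 25211 in *gis5* and 17338 to 24374 in WT. Most of that sum came from *PYK10*, which had a log2 ratio of 0.11. For the 3 root markers named by the annotation of the array the genotypes overlapped. Both leaf photosynthesis markers measured of 11 were lower in every *gis5* array than in every WT array, as were 6.79% of all probe sets, with a summed signal of 58366 to 61865 in *gis5* and 68432 to 78052 in WT, and *LHCB4.1* had a log2 ratio of −0.39 (adjusted p = 0.521). Whether these markers and the transporter genes move for the same reason was not tested.

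The anther and pollen list, which holds *SWEET5* and *SWEET8*, had 3 of 13 markers measured and a summed signal of 56.9 to 98.4 in *gis5* and 42.9 to 173 in WT, so that the genotypes overlapped. Of 12 leaf senescence markers 3 were measured, *SWEET15* (*SAG29*), *WRKY53* and *SEN1*. Their summed signal was 1128 to 3467 in *gis5* and 3980 to 4851 in WT, nearly all of it from *SEN1*, a gene induced by darkness and senescence. *SEN1* read 1589, 3306 and 1000 in *gis5*, against 4124, 3893 and 4666 in WT. It was named through the study's list, and 6.79% of all probe sets had every *gis5* array below every WT array. The other members went the other way, with log2 ratios of 0.52 for *WRKY53* and 0.19 for *SWEET15* and overlapping genotypes.

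**Figure D5:**
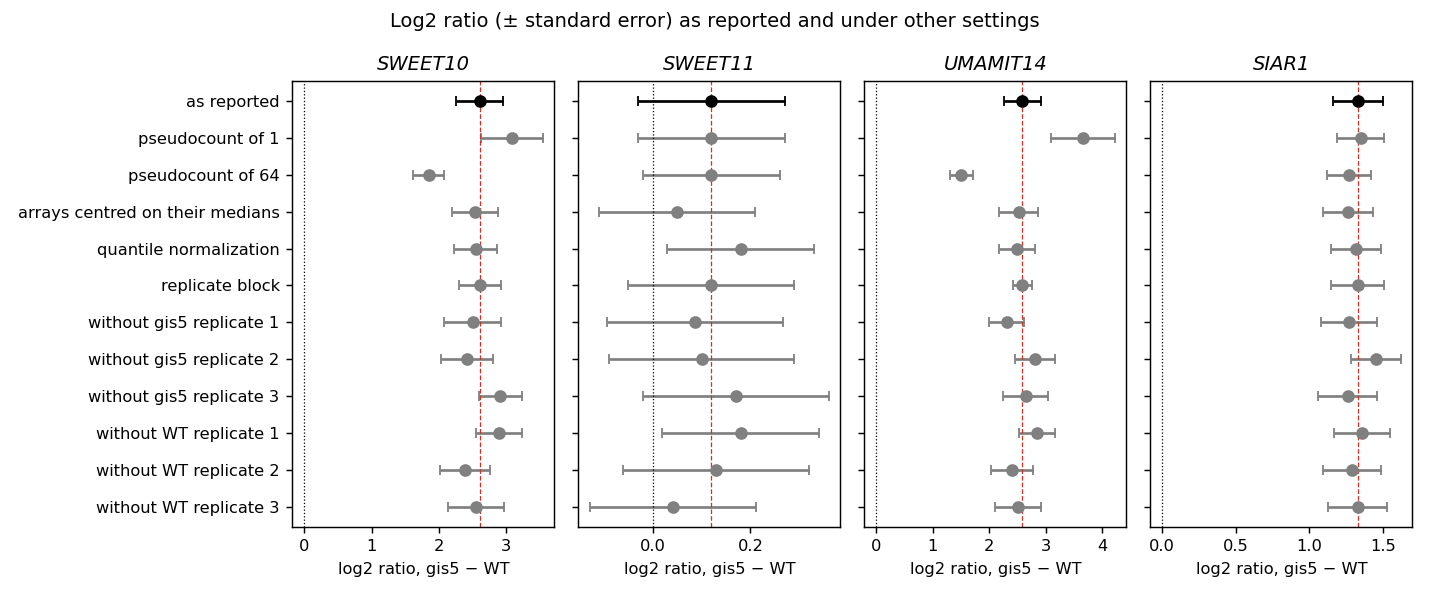
Log2 ratio, *gis5* minus WT (horizontal axis, a separate scale per gene), of *SWEET10*, *SWEET11*, *UMAMIT14* and *SIAR1*, as points with the standard error, as reported and under 11 other settings (rows), with the reported value as a dashed line. *SWEET10* and *UMAMIT14* move with the constant added before the log (1.85 and 1.51 with 64), and *SIAR1* stays between 1.26 and 1.45.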

How the data were processed

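Whole seedlings of *gis5* and WT gave 3 ATH1 arrays per genotype. The authors deposited linear signal intensities, 1 for each probe set on each array, for which the labels name MAS5 (version not given in the sources used here). With 2% trimmed from both ends, array means were 496, so the arrays had been scaled alike. The methods name RMA for the study's own analysis, whose fold changes and p-values were not used. After leaving out 64 control probe sets, log2(signal + 16) of the other 22746 was fitted on genotype alone (lmFit, then eBayes, in limma 3.58.1 under R 4.3.3), and p-values were adjusted by Benjamini-Hochberg across the array. The fit was tested on simulated data. No scaling was added, because array medians differed by less than a limit of 10%. The number of arrays limits the precision.

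The array annotation and RefSeq (TAIR10.1) named 13436 probe sets by locus and 77 by symbol only. The leading rows of the study's list named 849 more, which are selected for their difference. Another 503 matched several genes, and 7881 were left unnamed. A gene with several probe sets was taken by the brightest. Members and lists were chosen with earlier results of these data known. By rule, the text names every *SWEET* and *UMAMIT* gene whose log2 ratio was 0.5 or more in size or whose unadjusted p was under 0.05, genome neighbours, the 3 closest profiles and up to 5 genes of each list. Other genes of both families, and *OLEO2*, *OLEO4*, *SESA5*, *PYK10*, *RCA*, *TIP2;3*, *CASP1* and *SWEET15*, are named in addition, after their values were seen. Alternatives were constants of 1 and 64, median centring, quantile normalization, the replicate number as a block, omission of each array, of dim probe sets, or of probe sets with the suffixes _s_at and _x_at, and a trended and robust variance. Each measured *SWEET* and *UMAMIT* gene had 1 probe set, so the choice of probe set was not varied.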

Additional observations from a re-analysis of the deposited data

How the results depend on the processing

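The sign of the log2 ratio of *SWEET10*, *SWEET11*, *UMAMIT14* and *SIAR1* was the same under every alternative that could change it. The block, the variance setting and the filters on probe sets cannot change a log2 ratio. The constant added before the log moved it for the dim probe sets: with 64 it was 1.85 for *SWEET10* and 1.51 for *UMAMIT14*, and with 1 it was 3.66 for *UMAMIT14*. Without any 1 array it lay between 2.39 and 2.91 for *SWEET10*, 0.042 and 0.18 for *SWEET11*, 2.31 and 2.85 for *UMAMIT14* and 1.26 and 1.45 for *SIAR1*. The filter on dim probe sets removed *SWEET10* and *UMAMIT14*. In limma 0 of the 14 other *SWEET* genes had an adjusted p under 0.05 in any setting run. At an unadjusted p under 0.05, 2 were counted as reported, 1 with a constant of 1, 1 with a constant of 64, 1 with a trended and robust variance, 0 of the 4 above the median signal, and 1 to 3 without any 1 array (1 without the first *gis5* or the third WT array). The 5 other *UMAMIT* genes come from a list ordered by this contrast, so their counts are no test. In limma 0 had an adjusted p and 4 an unadjusted p under 0.05. Nothing is read from the 4 against the 9.05% of all probe sets. The 4 became 5 with median centring, with a constant of 64 and with a trended and robust variance, and 3 with the replicate block. Without any 1 array they became 1 to 3 (1 without the first *gis5* or the third WT array). Over the whole array 1 probe set passed the adjusted p, against 109 with the filter on dim probe sets, 0 with a constant of 1, 43 with a constant of 64, 145 with a trended and robust variance and 0 without any 1 array. The cause of these shifts was not tested. With the replicate number as a block 0 passed, and in this balanced design the block leaves the log2 ratios of the 4 genes unchanged by construction. Deviations from the group means correlated between same-numbered arrays at −0.06, −0.00028 and −0.04, so the numbers were not taken as pairs.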
